A study of Homo sapiens with 6 samples.

Results

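Histone lysine methylation is set by methyltransferases ("writers") and removed by demethylases ("erasers"). In cells that overproduced PRMT1, 52 genes for these enzymes and for the subunits EED and SUZ12 of Polycomb repressive complex 2 were followed. RBBP4 and RBBP7, further core subunits of that complex, are counted with the partner proteins instead. The 52 genes were taken from a list of symbols, and all 52 were found among the 57500 gene identifiers of the deposited table. They comprise 32 writers or writer subunits and 20 erasers, and each was assigned to the lysine it is best known for: 7 writers and 5 erasers of H3K4, 6 and 9 of H3K9, 4 and 2 of H3K27, 5 and 2 of H3K36, 3 writers of H4K20, and 9 members with another or a disputed substrate (7 writers and 2 erasers). All 52 passed the filter on low values, at least 1 TPM in at least 3 of 6 libraries. KDM8 and KDM4D, with 1 and 2 Mock libraries above 1 TPM, reached it only through their PRMT1-OV libraries.

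PRMT1 is the main arginine methyltransferase of mammalian cells and, like the lysine methyltransferases, takes its methyl group from S-adenosylmethionine. Methylation of H3K4 and H3K36 marks active promoters and transcribed gene bodies, whereas methylation of H3K9, H3K27 and H4K20 is associated with silent or compacted chromatin. SET-domain enzymes write these marks, and they are erased either by flavin-dependent amine oxidases (KDM1A and KDM1B) or by Jumonji C (JmjC) dioxygenases, which need iron and oxoglutarate.

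The study compared 3 PRMT1-OV libraries, from HEK293T cells transfected by means of PolyJet with a pcDNA3 plasmid that carries PRMT1, with 3 Mock libraries, labelled as the vector control. HEK293T is a human embryonic kidney cell line that expresses the SV40 large T antigen, and both groups share the genotype label WT. Polyadenylated RNA was sequenced and is given per gene as TPM, a level per transcript length scaled to the same total in each library. The labels name neither the time after transfection nor whether replicates were separate cultures, so the p-values rest on the variation among 3 libraries per group, part of which may be technical.

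PRMT1 itself stood at 71656, 62895 and 84923 TPM in PRMT1-OV libraries 1 to 3, against 378, 397 and 368 TPM in Mock libraries 1 to 3, a 192-fold difference. The libraries held 19874146 to 23163667 recovered reads in PRMT1-OV and 18196155 to 20424412 in Mock. Mock library 3 and PRMT1-OV library 2 stood apart from their groups. On TPM as deposited, the second PRMT1-OV library was the highest of its group for 39 of the 52 members. The third Mock library was the lowest of its group for 44. After the scaling described below these counts were 24 and 33, and the third PRMT1-OV library was the highest for 22. PRMT1 took 6.29 to 8.49% of all TPM in PRMT1-OV libraries and 0.0368 to 0.0397% in Mock libraries. The median log2 fold change of the 15341 tested genes was 0.30 on TPM as deposited and -0.01 after median-of-ratios scaling, which sets the typical gene equal between libraries, so each change is also given on that second scale as the "scaled" log2 fold change. Of 12 kidney and epithelial markers, 8 passed the filter, among them KRT8, KRT18 and PAX2, and VIM was lower in PRMT1-OV (mean 466 against 653 TPM in Mock, adjusted p = 0.00199), while PAX8, NPHS1 and UMOD were near 0 in both groups. The T cell gene CD3E was at 0 in all libraries. The 8 markers of other cell types summed to 10.5 to 11.3 TPM in PRMT1-OV and 12.5 to 17.6 TPM in Mock, nearly all of it COL1A1, and without it to 0.916 to 1.26 TPM and 0.306 to 0.847 TPM. The part of these markers in the results was not tested.

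Most of the module was higher in PRMT1-OV than in Mock cells. On TPM as deposited, 37 of the 52 members rose, 1 fell (KDM5C) and 14 did not pass the threshold (limma on log2(TPM + 1), adjusted p under 0.05 over all tested genes), while 40.3% of all tested genes were called higher and 8.64% lower. The median log2 fold change of the members was 0.52, beside 0.30 for all tested genes. After scaling, 16 members were called higher and 7 lower (KDM5C, KDM4B, EHMT2, EZH1, SMYD2, SMYD3 and SETD6), beside 22.5% and 25.5% of all tested genes, and the median was 0.17. The count of members called higher therefore depends on the scale. In a bulk sample, fewer cells that express a gene and less RNA per cell cannot be told apart.

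Without the 2 libraries that stood apart, 32 members were called higher and 4 lower on TPM as deposited. In that fit 37.2% of all tested genes were called higher and 13.8% lower. In TPM, the 3 values of one group lay entirely above the other's for 42 members higher in PRMT1-OV and 3 lower (KDM5C, EZH1 and SETD6), whereas 49.8% and 11.6% of all tested genes separated in these directions. On scaled values 23 members separated upward and 9 downward. The share of all tested genes was not counted on that scale, so these counts have no background beside them. Under all alternatives tried in which they were tested, scalings included, 15 members kept their call and direction. The writers among them were ASH1L, NSD1, SETD2, SETD5, SETD3, SETD1A, SUV39H2, EZH2, EED and SUZ12. The erasers were KDM5A, KDM5B, KDM5C, KDM4D and KDM6A. KDM5C was lower and the other 14 higher. The share of all tested genes that kept their call in this way was not counted, so the 15 have no background beside them. Under median-of-ratios scaling 22.5% of all tested genes were called higher, and under quantile normalization 20.3%. KDM4D was not tested with the stricter filter of 5 TPM, which it does not reach in 3 libraries.

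**Figure D1:**
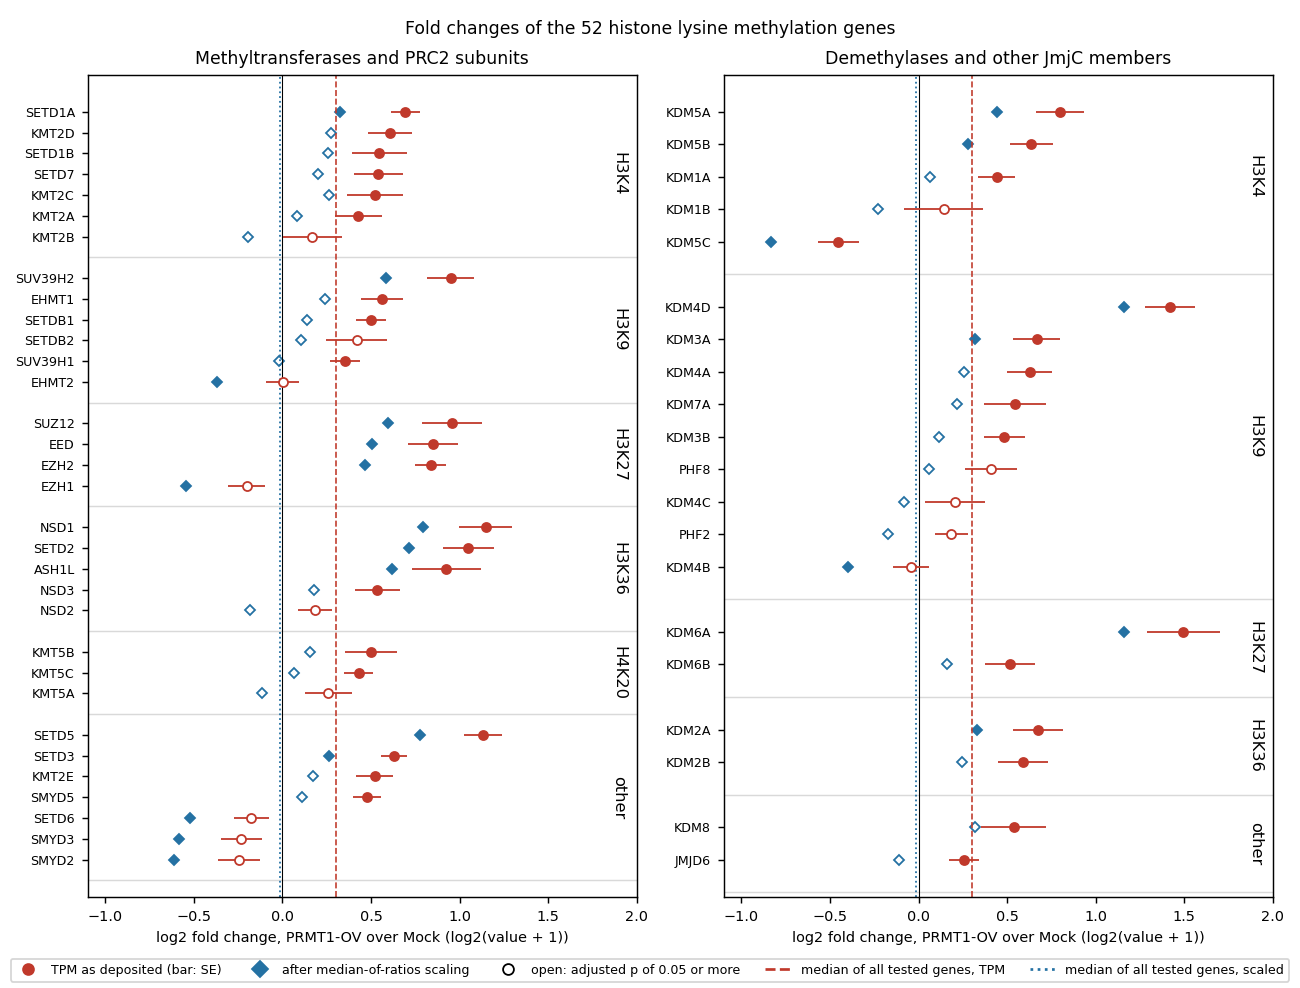
Log2 fold change of each of the 52 members, PRMT1-OV over Mock, by role and lysine; red circles give TPM as deposited with the SE, blue diamonds the scaled values, and open symbols did not pass the threshold. The vertical lines mark the medians of all tested genes, 0.30 (red, TPM) and -0.01 (blue, scaled), and KDM6A, KDM4D, NSD1, SETD5 and SETD2 lie farthest to the right and KDM5C farthest to the left.

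Writers and erasers had similar median changes. Of the 32 writers, 23 rose and none fell (0 in limma also at an unadjusted p under 0.05), with a median log2 fold change of 0.52, and of the 20 erasers, 14 rose and 1 fell, with a median of 0.53. After scaling, 10 writers were called higher and 5 lower, and 6 erasers higher and 2 lower. The summed level of all writers was 649, 727 and 656 TPM in PRMT1-OV libraries 1 to 3 and 506, 513 and 443 TPM in Mock libraries 1 to 3. For the erasers the sums were 541, 609 and 544 TPM in PRMT1-OV and 498, 525 and 398 TPM in Mock, where all Mock values lie below the lowest PRMT1-OV value. After scaling, the writers' sum was 1.07-fold that of Mock (1.39-fold as deposited) and the erasers' sum 0.918-fold (1.19-fold as deposited), so the direction of the erasers' sum turned. The ratio of writers to erasers, which a single factor per library leaves unchanged, was 1.20, 1.19 and 1.20 in PRMT1-OV libraries, above the 1.02, 0.977 and 1.11 of the Mock libraries. By lysine, the groups separated for H3K4 alone, where the mean ratio in PRMT1-OV was 1.37-fold that in Mock. It was 0.929-fold for H3K9, 0.877-fold for H3K27, 0.955-fold for H3K36 and 1.05-fold for members with another substrate, all with overlap. A large part of the erasers' sum is 1 H3K4 eraser, KDM5C. It had 99.8, 99.1 and 104 TPM in PRMT1-OV libraries and 145, 159 and 115 TPM in Mock libraries. The ratios without KDM5C are not given, so the shift over all members and that for H3K4 cannot be read as shifts of the whole class.

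**Figure D2:**
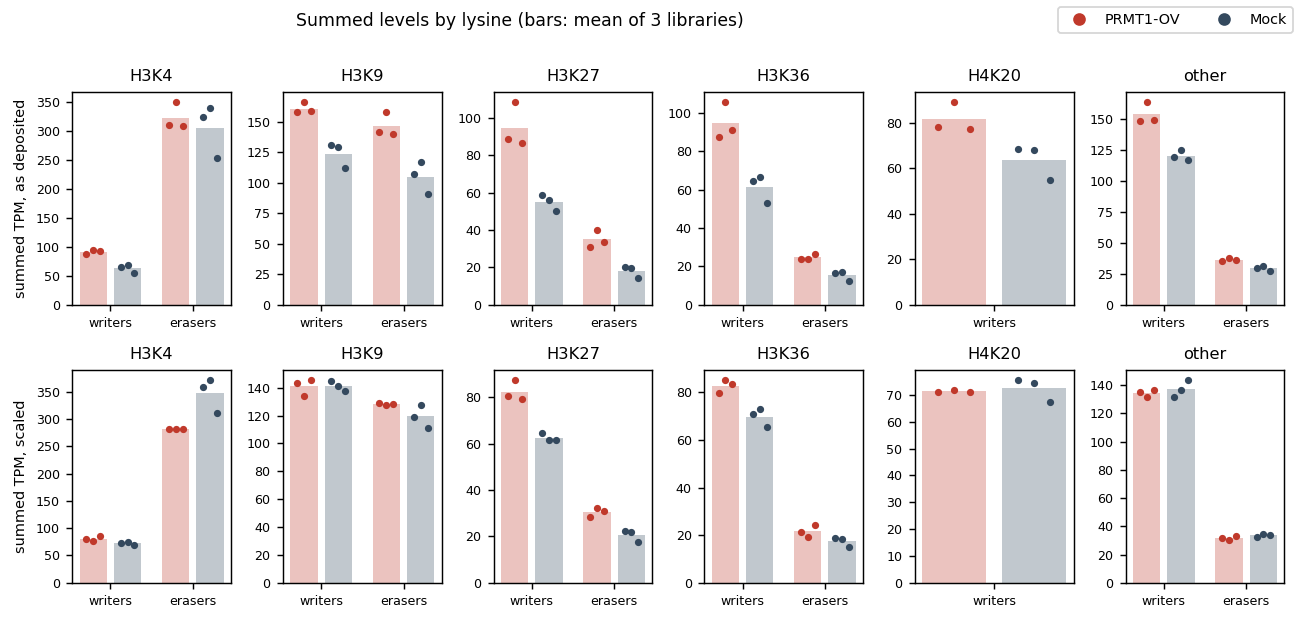
Summed levels of writers and erasers of each lysine in each library, as deposited (top) and after median-of-ratios scaling (bottom); points are libraries and bars the mean of 3. The H3K27 and H3K36 groups and the H3K4 writers separate in both rows. The H3K4 erasers are lower in PRMT1-OV only in the bottom row, and the H3K9 writers lie at the same level there.

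The H3K27 machinery showed a divided response. EZH2, the catalytic subunit of Polycomb repressive complex 2 in dividing cells, and its non-catalytic partners EED, which binds the methylated tail, and SUZ12, which holds the complex together, all rose, while EZH1, the alternative catalytic subunit, did not pass on TPM as deposited and was called lower after scaling. Promoters of these 4 genes and of KDM6A and KDM5C, the most raised and the lowered eraser, are shown because the genes of one complex or one family moved apart. Each runs 5′ to 3′ in transcript direction from 250 bases before to 50 after the start (RefSeq, GRCh38.p14), with CCAAT boxes (CCAAT or ATTGG), the E2F-type motif TTTNNCGC and the YY1 motif AAGATGGCG in capitals, each searched on both strands. No capital stretch belongs to more than 1 motif.
EZH2: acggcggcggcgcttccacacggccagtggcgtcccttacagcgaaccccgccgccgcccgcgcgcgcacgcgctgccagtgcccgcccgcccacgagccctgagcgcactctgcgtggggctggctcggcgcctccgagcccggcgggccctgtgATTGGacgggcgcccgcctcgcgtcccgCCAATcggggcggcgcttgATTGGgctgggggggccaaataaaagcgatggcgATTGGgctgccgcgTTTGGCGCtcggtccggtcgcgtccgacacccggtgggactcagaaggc
EED: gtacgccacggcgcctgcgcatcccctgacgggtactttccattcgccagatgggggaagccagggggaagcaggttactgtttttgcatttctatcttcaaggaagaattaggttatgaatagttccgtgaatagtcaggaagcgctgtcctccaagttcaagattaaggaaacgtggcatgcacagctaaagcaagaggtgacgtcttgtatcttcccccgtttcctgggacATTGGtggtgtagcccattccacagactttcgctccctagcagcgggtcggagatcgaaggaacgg
SUZ12: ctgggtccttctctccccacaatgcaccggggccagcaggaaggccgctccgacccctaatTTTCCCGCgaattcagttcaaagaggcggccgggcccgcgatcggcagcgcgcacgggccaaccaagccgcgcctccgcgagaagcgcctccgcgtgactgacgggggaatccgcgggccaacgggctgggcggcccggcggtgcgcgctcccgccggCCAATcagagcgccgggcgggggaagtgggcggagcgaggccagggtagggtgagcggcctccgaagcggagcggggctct
EZH1: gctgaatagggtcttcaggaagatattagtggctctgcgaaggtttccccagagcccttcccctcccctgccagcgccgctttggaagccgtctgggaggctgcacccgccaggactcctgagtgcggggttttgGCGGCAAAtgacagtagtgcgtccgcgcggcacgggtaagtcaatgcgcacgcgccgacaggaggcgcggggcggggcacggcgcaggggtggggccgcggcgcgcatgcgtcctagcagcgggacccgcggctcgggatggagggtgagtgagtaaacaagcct
KDM6A: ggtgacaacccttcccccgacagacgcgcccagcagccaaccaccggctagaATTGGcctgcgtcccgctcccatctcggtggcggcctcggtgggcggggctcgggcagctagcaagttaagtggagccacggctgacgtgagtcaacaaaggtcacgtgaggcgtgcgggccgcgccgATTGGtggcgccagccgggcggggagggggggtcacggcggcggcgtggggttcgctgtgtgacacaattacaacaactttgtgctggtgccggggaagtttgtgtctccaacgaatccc
KDM5C: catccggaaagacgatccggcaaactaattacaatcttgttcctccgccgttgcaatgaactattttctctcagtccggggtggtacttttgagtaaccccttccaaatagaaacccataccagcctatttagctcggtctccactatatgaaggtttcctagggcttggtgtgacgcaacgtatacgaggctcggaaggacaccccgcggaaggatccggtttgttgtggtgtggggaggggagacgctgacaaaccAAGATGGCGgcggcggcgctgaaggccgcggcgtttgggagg

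The windows lie at chr7:148884242-148884541 (minus strand, EZH2), chr11:86244503-86244802 (plus strand, EED), chr17:31936757-31937056 (plus strand, SUZ12), chr17:42744991-42745290 (minus strand, EZH1), chrX:44872938-44873237 (plus strand, KDM6A) and chrX:53225158-53225457 (minus strand, KDM5C). CCAAT boxes numbered 4 in EZH2, 1 in EED, 1 in SUZ12 and 2 in KDM6A, and 0 in EZH1 and KDM5C. The E2F-type motif had 1 match each in EZH2, SUZ12 and EZH1, and the YY1 motif, within this group, in KDM5C. Over the 27305 promoters of the table, 35.7% held a CCAAT box, 6.90% the E2F-type motif and 1.85% the YY1 motif. Among the 49 members with a promoter entry these were 36.7% (18), 16.3% (8) and 8.16% (4). On TPM as deposited, 12 of the 18 members with a CCAAT box and 22 of the 31 without one rose, and 8 of 18 and 8 of 31 were called higher after scaling. With and without the E2F-type motif, 3 of 8 and 31 of 41 members rose, and 2 of 8 and 14 of 41 were called higher after scaling. With and without the YY1 motif, 2 of 4 and 32 of 45 rose. These differences were not tested. The GC box GGGCGG was in 77.6% of the members' promoters and 44.6% of all promoters, and the median number of CpG dinucleotides per window was 30 in members and 14 in all promoters. A match is a description of letters, not a binding site. SETD1B, NSD3 and JMJD6 were not matched.

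EZH2 (ENSG00000106462, chromosome 7, 148807383 to 148884321 on GRCh38 in GENCODE 29) had 44.6, 50.3 and 43.4 TPM in PRMT1-OV libraries 1 to 3, against 26.3, 25.3 and 24.3 TPM in Mock libraries 1 to 3. SUZ12 had 23.2, 33.9 and 23.4 TPM in PRMT1-OV and 14.4, 14.1 and 11.1 TPM in Mock, and EED 12.3, 15.7 and 11.7 TPM in PRMT1-OV and 7.40, 7.25 and 5.98 TPM in Mock. All 3 genes were above the whole Mock range in each PRMT1-OV library, by log2 fold changes of 0.84 (SE 0.09, adjusted p = 0.000361) for EZH2, 0.96 (SE 0.17, adjusted p = 0.00304) for SUZ12 and 0.85 (SE 0.14, adjusted p = 0.00231) for EED in limma. EZH1, by contrast, had 8.23, 8.37 and 7.88 TPM in PRMT1-OV, all below the 10.3, 9.60 and 8.79 TPM of Mock (log2 fold change -0.20, SE 0.10, adjusted p = 0.138; scaled -0.54, adjusted p = 0.0021). The EZH1 to EZH2 ratio, which a single factor per library leaves unchanged, was 0.177 ± 0.010 in PRMT1-OV and 0.377 ± 0.014 in Mock (SD, n = 3 each), a log2 difference of -1.09 with no overlap (exact two-sided permutation p = 0.1, the smallest that 3 against 3 allows; 0.173 adjusted over 19 pairs). Summed, the 4 H3K27 writer genes stood at 88.4, 108 and 86.3 TPM in PRMT1-OV, against 58.4, 56.2 and 50.2 TPM in Mock, 1.72-fold higher as deposited and 1.31-fold after scaling.

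Among the H3K27 erasers the response was also unequal. KDM6A (UTX), an X-linked demethylase that is also a subunit of the KMT2C and KMT2D complexes, had 14.5, 18.1 and 15.0 TPM in PRMT1-OV, against 5.91, 6.16 and 3.30 TPM in Mock. This was the largest log2 change of the 52 members, 1.49 (SE 0.21, limma adjusted p = 0.00109), with a 3.1-fold higher mean TPM and a scaled log2 fold change of 1.16. Its paralog KDM6B (JMJD3), known as an inducible enzyme, had 16.5, 21.9 and 18.7 TPM in PRMT1-OV, against 14.3, 13.8 and 10.9 TPM in Mock, which separated less (0.52, SE 0.14, adjusted p = 0.0185; scaled 0.16, adjusted p = 0.222). Without PRMT1-OV library 2 the KDM6B call was lost (adjusted p = 0.0545). The KDM6B to KDM6A ratio was 1.13, 1.21 and 1.25 in PRMT1-OV and 2.42, 2.24 and 3.30 in Mock. The ranges do not meet (log2 difference -1.13, exact permutation p = 0.1).

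**Figure D3:**
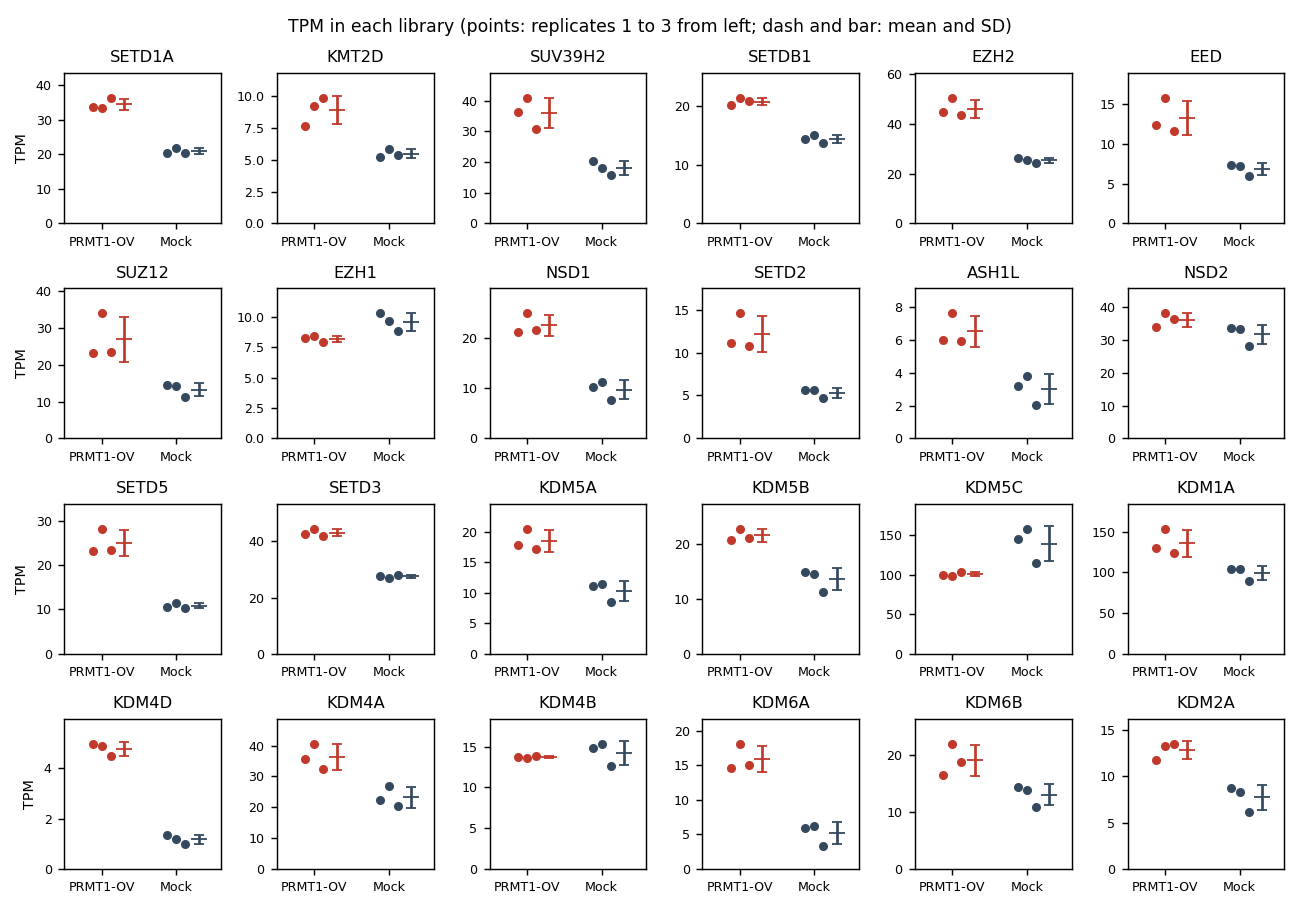
TPM of 24 members in each library, with PRMT1-OV left of Mock; points are replicates 1 to 3 from left, and the dash and bar give the mean and SD. KDM6A, KDM4D, NSD1, SETD2 and SETD5 have a mean over 2-fold higher in PRMT1-OV, whereas KDM5C and EZH1 lie below Mock and KDM4B overlaps it.

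NSD1, SETD2 and ASH1L, 3 of the 5 H3K36 writers, were among the most raised members. NSD1, which dimethylates H3K36, had 21.1, 24.9 and 21.6 TPM in PRMT1-OV, against 10.2, 11.3 and 7.61 TPM in Mock (log2 fold change 1.15, SE 0.15, limma adjusted p = 0.000851; scaled 0.79). SETD2, the main enzyme for H3K36 trimethylation, had 11.1, 14.6 and 10.8 TPM in PRMT1-OV, against 5.66, 5.63 and 4.67 TPM in Mock (1.05, SE 0.14, adjusted p = 0.00104; scaled 0.71). ASH1L, a dimethyltransferase of the Trithorax group, had 6.03, 7.63 and 5.94 TPM in PRMT1-OV, against 3.18, 3.83 and 2.05 TPM in Mock (0.93, SE 0.19, adjusted p = 0.00603; scaled 0.62). All 3 were over 2-fold higher with no overlap between groups. NSD3 rose less (0.53, adjusted p = 0.0102; scaled 0.18, not called), and NSD2, which acts on the same lysine as its paralog NSD1, had 33.9, 38.1 and 36.4 TPM in PRMT1-OV and 33.5, 33.3 and 28.3 TPM in Mock and did not pass (0.19, adjusted p = 0.147). The NSD2 to NSD1 ratio was thus 1.61 ± 0.079 in PRMT1-OV and 3.31 ± 0.386 in Mock (SD, n = 3 each; log2 difference -1.04, exact permutation p = 0.1).

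The 2 H3K36 erasers, CXXC-domain proteins that bind unmethylated CpG, rose together by similar amounts. KDM2A had 11.7, 13.3 and 13.5 TPM in PRMT1-OV, against 8.75, 8.26 and 6.20 TPM in Mock (0.67, SE 0.14, limma adjusted p = 0.00583; scaled 0.33, adjusted p = 0.0441). KDM2B, also a subunit of a Polycomb repressive complex 1, had 11.9, 10.7 and 13.0 TPM in PRMT1-OV, against 8.07, 8.64 and 6.14 TPM in Mock (0.59, SE 0.14, adjusted p = 0.0112; scaled 0.25, not called). Their ratio overlapped between groups. A pseudogene of PRMT1, PRMT1P1, lies within NSD1 on the opposite strand and covers 3.01% of its exonic bases. It was listed at 8.03, 7.38 and 7.64 TPM in PRMT1-OV and at 0 in all Mock libraries, with 145 recovered reads over the PRMT1-OV libraries, beside 6531 reads of NSD1 in PRMT1-OV and 2726 in Mock.

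On H3K4, most writers rose on TPM as deposited and the eraser side was split by KDM5C. In all, 6 of the 7 writers were called higher with log2 fold changes of 0.43 to 0.69, beside 40.3% of all tested genes. After scaling 1 of the 7 was called higher and 0 lower, beside 22.5% and 25.5% of all tested genes. The 1 that kept its call was SETD1A, the catalytic subunit of the main complex for H3K4 trimethylation. SETD1A had 33.5, 33.5 and 36.2 TPM in PRMT1-OV, against 20.4, 21.8 and 20.4 TPM in Mock (0.69, SE 0.08, limma adjusted p = 0.00056; scaled 0.33, adjusted p = 0.0243). KMT2D, an enhancer monomethyltransferase, had 7.67, 9.23 and 9.85 TPM in PRMT1-OV, against 5.25, 5.87 and 5.36 TPM in Mock (0.61, SE 0.12, adjusted p = 0.00549; scaled 0.27, adjusted p = 0.0878). Both separated without overlap. KMT2A, KMT2C and SETD1B lost the call without 1 library in 5, 5 and 3 of the 6 such fits, with adjusted p of at most 0.0749, 0.0710 and 0.0785. KMT2B, the promoter-bound relative of KMT2A, did not pass (0.17, adjusted p = 0.42).

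KDM5C, an X-linked demethylase of trimethylated H3K4, was the single member that fell on TPM as deposited. It had 99.8, 99.1 and 104 TPM in PRMT1-OV, against 145, 159 and 115 TPM in Mock (log2 fold change -0.45, SE 0.12, limma adjusted p = 0.014; scaled -0.83, adjusted p = 0.000749). Every PRMT1-OV value lay below every Mock value. Its paralogs KDM5A, which binds the retinoblastoma protein, and KDM5B moved the other way. KDM5A had 17.8, 20.5 and 17.2 TPM in PRMT1-OV, against 11.1, 11.4 and 8.40 TPM in Mock (0.80, SE 0.14, adjusted p = 0.00257; scaled 0.44). KDM5B had 20.8, 22.9 and 21.2 TPM in PRMT1-OV, against 15.0, 14.7 and 11.3 TPM in Mock (0.64, SE 0.12, adjusted p = 0.00417; scaled 0.28). Both kept their call after scaling. The KDM5C to KDM5A ratio was 5.50 ± 0.622 in PRMT1-OV and 13.6 ± 0.441 in Mock (SD, n = 3 each), the largest shift of the 19 ratios of related genes in TPM (log2 difference -1.31, exact permutation p = 0.1). Under quantile normalization it was -0.87, smaller than the -1.25 of EZH1 over EZH2 and the -0.93 of KDM6B over KDM6A.

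KDM1A (LSD1), the amine oxidase of the CoREST complex, had 129.5, 154 and 123 TPM in PRMT1-OV and 104.5, 103.7 and 89.7 TPM in Mock, and was with KDM5C one of the 2 most abundant members in both groups. It rose on TPM as deposited (0.44, SE 0.10, limma adjusted p = 0.0104) and lay near the typical gene after median-of-ratios scaling (0.06, adjusted p = 0.484), but kept its call under quantile normalization (0.41, adjusted p = 0.0055). KDM1B overlapped between groups. As KDM1A and KDM5C make up most of the H3K4 erasers, the erasers' sum was 310, 350 and 308 TPM in PRMT1-OV and 324, 340 and 253 TPM in Mock, ranges that overlap, and 1.06-fold higher as deposited and 0.813-fold after scaling. The writers' sum was 88.2, 94.2 and 92.8 TPM in PRMT1-OV, against 65.9, 68.7 and 55.6 TPM in Mock. H3K4 writers over erasers thus came to 0.285, 0.269 and 0.301 in PRMT1-OV, above the 0.203, 0.202 and 0.220 of Mock. The fall of KDM5C is part of this difference, and the ratio without KDM5C is not given.

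Among H3K9 writers, the SUV39H and EHMT pairs moved apart, while the SETDB2 to SETDB1 ratio overlapped between groups (log2 difference -0.02). SUV39H2, which trimethylates H3K9 in heterochromatin, had the largest change of this group, with 36.3, 40.8 and 30.8 TPM in PRMT1-OV, against 20.4, 18.0 and 15.9 TPM in Mock (0.95, SE 0.13, limma adjusted p = 0.00116; scaled 0.58, adjusted p = 0.00245). SUV39H1, with the same activity, rose as deposited (0.35, adjusted p = 0.0107) and was not called after scaling (-0.02). SUV39H2 to SUV39H1 therefore came to 0.922 ± 0.126 in PRMT1-OV, against 0.595 ± 0.036 in Mock (log2 difference 0.63, exact permutation p = 0.1), the single higher ratio among the 11 that separated. SETDB1, which silences retroelements, had 20.2, 21.4 and 20.9 TPM in PRMT1-OV, against 14.5, 15.2 and 13.8 TPM in Mock (0.50, SE 0.09, adjusted p = 0.00272; scaled 0.14, adjusted p = 0.184). EHMT1 (GLP) rose by 0.56 (adjusted p = 0.0066; scaled 0.24, not called). Its partner EHMT2 (G9a), the third most abundant member, had 52.4, 50.5 and 56.2 TPM in PRMT1-OV and 55.7, 56.1 and 47.4 TPM in Mock, an overlap as deposited (0.00, adjusted p = 0.986); it was called lower after scaling (-0.37, adjusted p = 0.015). The EHMT2 to EHMT1 ratio was 8.08 ± 0.348 in PRMT1-OV, against 12.8 ± 0.576 in Mock. The log2 difference was -0.67 in TPM and -0.23 under quantile normalization.

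Of the 9 H3K9 erasers, 5 rose and none fell (0 in limma also at an unadjusted p under 0.05). Of all tested genes, 40.3% were called higher and 8.64% lower. After scaling 2 of the 9 were called higher and 1 lower (22.2% and 11.1%), beside 22.5% and 25.5% of all tested genes. The share called higher was then near that of all tested genes. KDM4D, a short member of the KDM4 family without the reader domains of its relatives, had 4.98, 4.90 and 4.47 TPM in PRMT1-OV, against 1.34, 1.18 and 0.974 TPM in Mock (1.42, SE 0.14, limma adjusted p = 0.00029; scaled 1.16, adjusted p = 0.000529). As a ratio of mean TPM, this 4.1-fold difference was the largest of the 52 members. It rests on 267 recovered reads over the 3 PRMT1-OV libraries and 63 over the 3 Mock libraries. KDM4D reached the filter only through its PRMT1-OV libraries, with 2 Mock libraries above 1 TPM. In the limma fit without a filter its adjusted p was 0.00205. KDM3A, known as a hypoxia-induced demethylase, had 13.9, 17.0 and 13.5 TPM in PRMT1-OV, against 9.22, 9.94 and 7.72 TPM in Mock (0.67, SE 0.13, adjusted p = 0.00489; scaled 0.32, adjusted p = 0.0219). KDM4A and KDM3B rose as deposited (0.63 and 0.48) and were not called after scaling. KDM4B, by contrast, overlapped at 13.8, 13.6 and 13.9 TPM in PRMT1-OV and 14.8, 15.4 and 12.6 TPM in Mock, and was called lower after scaling (-0.40, adjusted p = 0.00831). KDM4B over KDM4A was 0.383 ± 0.047 in PRMT1-OV and 0.618 ± 0.044 in Mock (log2 difference -0.70). KDM7A rose as deposited (0.55, adjusted p = 0.0341) but lost its call in 4 of 6 fits without 1 library (adjusted p up to 0.102), and with GC correction (0.0555). KDM4C, PHF2 and PHF8 did not pass the threshold.

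**Figure D4:**
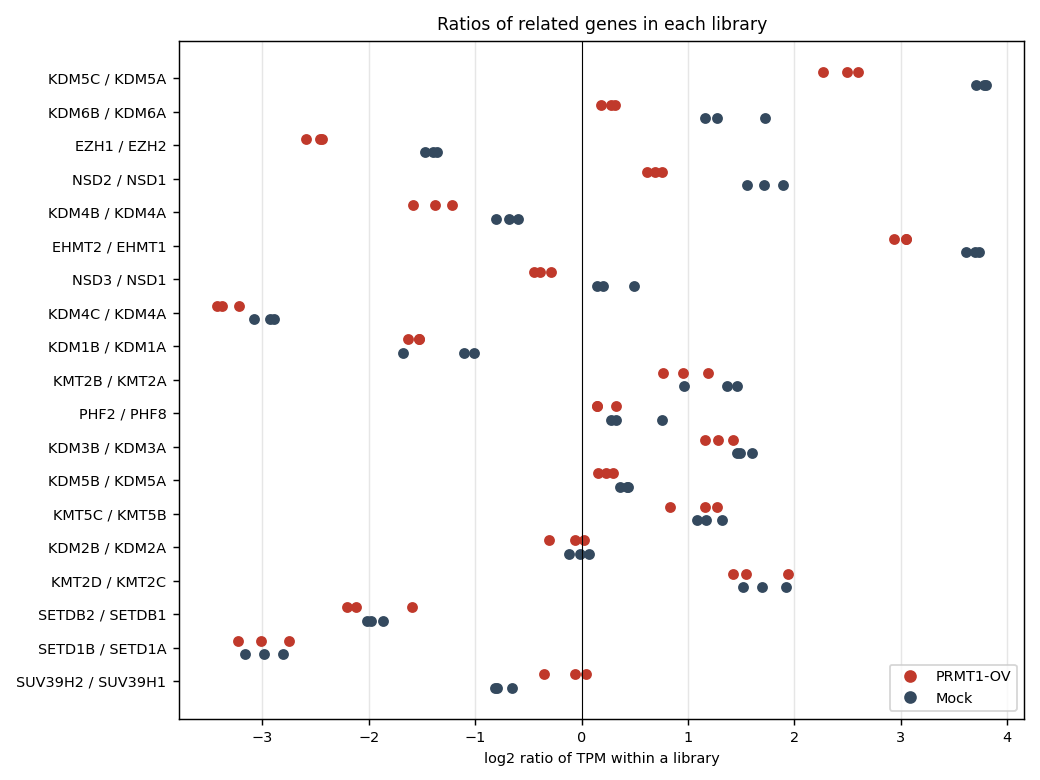
Log2 ratio of the TPM of 19 pairs of related genes within each library, PRMT1-OV in red above Mock in dark blue. Groups do not overlap for 11 pairs, and other gene pairs were not counted. KDM5C over KDM5A, KDM6B over KDM6A, EZH1 over EZH2 and NSD2 over NSD1 moved by over 1 log2 unit toward the second gene. SUV39H2 over SUV39H1 lies higher in PRMT1-OV.

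Over all 19 ratios of related genes, 11 separated between groups, 10 of them lower and 1 higher in PRMT1-OV, and 8 overlapped. Ratios of other gene pairs were not counted, so the 11 have no background beside them. Of single tested genes, 49.8% separated upward and 11.6% downward in TPM. The first gene of each pair was set by hand, so the direction count carries no meaning of its own. Every separated ratio reached the smallest exact p that 3 against 3 allows, 0.1, or 0.173 after adjustment, so none can pass a threshold of 0.05 in this design. Pairs whose ratios overlapped included SETD1B with SETD1A, KMT2D with KMT2C and SETDB2 with SETDB1.

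The H4K20 writers lay close to the typical gene after scaling. KMT5C had 25.1, 26.0 and 25.2 TPM in PRMT1-OV, against 18.7, 19.4 and 17.8 TPM in Mock (0.43, SE 0.08, limma adjusted p = 0.00388; scaled 0.07). KMT5B, its fellow dimethyl and trimethyl writer, had 11.3, 14.6 and 10.4 TPM in PRMT1-OV, against 8.84, 8.63 and 7.14 TPM in Mock (0.50, SE 0.15, adjusted p = 0.0242; scaled 0.16). Both separated as deposited, and neither was called after scaling. KMT5B lost its call without 1 library in 3 of 6 fits (adjusted p up to 0.0619). The monomethyl writer KMT5A did not pass (0.26, adjusted p = 0.14). Their summed level was 1.28-fold higher as deposited and 0.985-fold after scaling.

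Members with another or disputed substrate held both a large rise and the lowest writers. SETD5, whose own methyltransferase activity is disputed, had 23.3, 28.3 and 23.5 TPM in PRMT1-OV, against 10.7, 11.4 and 10.4 TPM in Mock (1.13, SE 0.11, limma adjusted p = 0.000256; scaled 0.77, adjusted p = 0.000398). SETD3, which methylates a histidine of actin, had 42.7, 44.6 and 42.1 TPM in PRMT1-OV, against 27.7, 26.8 and 28.0 TPM in Mock (0.63, SE 0.07, adjusted p = 0.000565; scaled 0.26, adjusted p = 0.0367). Both were higher in every PRMT1-OV library than in any Mock library. SMYD2, SMYD3 and SETD6, which methylate p53, MAP3K2 and RELA among other proteins, had log2 fold changes of -0.25, -0.23 and -0.17 that did not pass (adjusted p = 0.119, 0.14 and 0.17), and were called lower after scaling (-0.61, -0.59 and -0.52). SETD6 shares 21.4% of its exonic bases with CNOT1 on the opposite strand. Among the JmjC members, JMJD6, a lysyl hydroxylase, had 33.6, 35.3 and 34.2 TPM in PRMT1-OV, against 28.6, 30.9 and 26.5 TPM in Mock (0.26, SE 0.09, adjusted p = 0.0396), and KDM8 1.36, 2.04 and 1.91 TPM in PRMT1-OV, against 0.791, 0.748 and 1.18 TPM in Mock (0.54, SE 0.18, adjusted p = 0.0428). Neither was called after scaling, where JMJD6 stood at -0.11. Both lost the call in most fits without 1 library, 5 and 4 of 6. KDM8 reached the filter only through its PRMT1-OV libraries, with 1 Mock library above 1 TPM. In the limma fit without a filter KDM8 was not called (adjusted p = 0.0913).

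The log2 fold changes of the members were set beside their level and base composition. Across the 52 members Spearman rho was -0.44 with Mock TPM, -0.33 with transcript GC content and 0.15 with exonic length. All rest on the same 6 libraries and are given as a description. Mock TPM is also the denominator of the fold change, so noise in Mock alone can make that rho negative. Over 15276 tested genes rho with GC content was -0.24. Of the 26 members with lower GC content, 19 rose, and 12 were called higher and 3 lower after scaling. Of the 26 with higher GC content, 18 rose, and 4 were called higher and 4 lower after scaling. With a correction for GC content, 38 members were called higher and 1 lower, beside 41.7% and 7.71% of all tested genes. The medians of the lower and higher GC groups were then 0.47 and 0.53.

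Partner proteins of these enzymes were counted in the same way, beside 40.3% of all tested genes called higher and 8.64% lower, or 22.5% and 25.5% after scaling. Of 14 COMPASS partners, the core and accessory subunits of H3K4 methyltransferase complexes, 10 rose and none fell (0 in limma also at an unadjusted p under 0.05), with a median log2 fold change of 0.61, and 8 were called higher and 1 lower after scaling. ASH2L, a core subunit, rose by 0.95 and PAXIP1, a subunit of the KMT2C and KMT2D complexes, by 1.11 (limma adjusted p = 0.000452 and 0.000668). Of 9 further subunits of Polycomb repressive complex 2, core and accessory, 4 rose and 1 fell, with a median of 0.26. After scaling 2 were higher and 4 lower. EPOP rose by 0.83 and JARID2 by 0.63, and PHF19 changed by -0.32 (limma adjusted p = 0.000592, 0.00167 and 0.0215). The core subunits RBBP4 and RBBP7 did not pass (0.04 and 0.26, adjusted p = 0.742 and 0.052). After scaling RBBP4 was called lower (-0.34, adjusted p = 0.00809) and RBBP7 was not called (-0.12, adjusted p = 0.164). Of 12 partners of H3K9 silencing, 5 rose and 1 fell, a share near that of all tested genes, with a median of 0.26, and after scaling 4 were higher and 2 lower. ATF7IP, which stabilises SETDB1, rose by 1.10, and WIZ, which binds EHMT1 and EHMT2, fell to 35.8, 37.5 and 36.1 TPM in PRMT1-OV, against 58.4, 60.0 and 56.6 TPM in Mock (-0.66, adjusted p = 0.000389). Among 11 LSD1-CoREST partners, 6 rose and 1 fell, and after scaling 4 were higher and 2 lower: RCOR1, the scaffold, rose by 0.84, and HMG20B had 94.3, 98.7 and 92.1 TPM in PRMT1-OV, against 166, 163 and 155 TPM in Mock (-0.76, adjusted p = 0.000195). The median of all tested genes, 0.30, lies close to the medians of 0.26 to 0.34 of these last 3 lists. The named partners other than RBBP4 and RBBP7 kept their direction after scaling.

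Some counts could be split with a neighbour, since the strand setting of the counting is not given. SUV39H1 shares 20.3% of its exonic bases with an antisense RNA, KDM8 14.5%, SETDB1 13.4% with CERS2, KDM4A 8.97% with KDM4A-AS1 and EHMT2 8.12% with EHMT2-AS1. On the same strand, unnamed protein-coding genes cover 40.2% of KDM4A and 17.9% of KMT2A. The levels of these neighbours were not examined, so the shared bases do not say how far the members' levels could be off. The fewest recovered reads over the 3 Mock libraries were the 63 of KDM4D, and the median was 1781.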

How the data were processed

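Polyadenylated RNA of 6 HEK293T libraries was sequenced. Per the submitters' processing notes, Trimmomatic 0.36, STAR 2.5.2b, featureCounts and Subread 1.5.2 were used with GRCh38; the sources used here give no annotation, strand setting or TPM formula. The authors deposited TPM per Ensembl gene, each library adding up to 1000000, so a gene with a large share lowers all others. Columns and groups were matched by sample titles.

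Gene names came from a table holding 56410 of the 57500 identifiers. TPM multiplied by GENCODE 29 exonic length gave whole multiples of a library's smallest step for 95.5 to 95.7% of values under 50 reads (within 0.05 read), which gave the recovered reads; 3 reads are 0.459 to 0.526 TPM for a gene of 1 kb. These figures cover counting error only. Replicates differed by more than counting noise (chi-square per degree of freedom 2.70 to 23.2).

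The 15341 genes reaching 1 TPM in 3 or more libraries were tested by limma 3.58.1 (R 4.3.3; lmFit, eBayes with trend, no covariate) after a log2(TPM + 1) transformation, with Benjamini-Hochberg adjustment and a threshold of 0.05; the fit was tested on simulated data. This scale understates changes of low genes. Ratios of 19 pairs of related genes were compared by exact permutation over 20 splits. Alternatives covered pseudocount, filter, scaling, GC content, variance trend, a replicate block and left-out libraries. Values per library are given for the 2 members of each class with the smallest p, for called members with a log2 fold change of at least 0.8 in size and for called members that fell; of each list of partners, the 2 called genes with the smallest p are named. KDM1A, KDM4B, EZH1, NSD2, EHMT2, PHF19, RBBP4, RBBP7, DOT1L, PRDM16, VIM and PRMT1P1 are given beside them and were chosen after their values were seen. The members, classes and lists were chosen with earlier results of these data known. Promoters came from RefSeq (GRCh38.p14).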

Additional observations from a re-analysis of the deposited data

How the results depend on the processing

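Scaling moved the counts most. Members called higher numbered 16 under median-of-ratios scaling and 16 under quantile normalization, and members called lower 7 and 6, while genes called higher numbered 3448 and 3109 and genes called lower 3913 and 2979. Rescaled without PRMT1, the table gave 880 genes lower. Without the 2 libraries that stood apart, genes lower numbered 2115 and members lower 4. The replicate numbers did not pair the libraries (correlations of deviations -0.03, 0.06 and 0.02 for same-numbered libraries). With the replicate block 36 members were higher and 1 lower, beside 40.9% and 8.57% of all tested genes. This lost KDM8 and JMJD6 and gained PHF8. With block and GC correction 2 members were lower, beside 8.12% of all tested genes. Without 1 library each, genes higher ranged over 5082 to 5634, genes lower 935 to 1520, members higher 30 to 35 and members lower 1 to 2, the 2 being without PRMT1-OV replicate 2, when SMYD2 joined KDM5C. The cause was not tested for any of these.

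Log2 fold changes that turned sign under median-of-ratios scaling were EHMT2 at -0.37, JMJD6 at -0.11, KDM1B at -0.23, KDM4C at -0.084, KMT2B at -0.19, KMT5A at -0.11, NSD2 at -0.18, PHF2 at -0.17 and SUV39H1 at -0.018. Under quantile normalization they were EHMT2 at -0.14, JMJD6 at -0.021, KDM1B at -0.063, KDM4C at -0.23, KMT2A at -0.017, KMT2B at -0.17, NSD2 at -0.069, PHF2 at -0.21, PHF8 at -0.0093 and SETDB2 at -0.050. KDM4B was 0.058 when rescaled without PRMT1, 0.12 with GC correction and 0.12 with block and GC correction. Without both libraries that stood apart EHMT2 was -0.042, KDM1B -0.24, KDM4C -0.018 and KMT2B -0.038. Without 1 library each, EHMT2 ranged over -0.076 to 0.044 (lowest without Mock replicate 3), KDM1B -0.13 to 0.30 and KMT2B -0.029 to 0.29 (both lowest without Mock replicate 3), and KDM4B -0.12 to 0.0093. In the same fits the log2 ratio difference ranged over -0.21 to 0.097 for SETDB2 over SETDB1, -0.19 to 0.028 for KMT5C over KMT5B, -0.13 to 0.11 for SETD1B over SETD1A, -0.23 to 0.032 for KMT2D over KMT2C (0.081 with a pseudocount of 1 TPM) and -0.16 to 0.0038 for KDM2B over KDM2A. Quantile normalization also moved ratios: KDM5C over KDM5A was -0.87 and EHMT2 over EHMT1 -0.23, against -1.31 and -0.67 in TPM, and KMT5C over KMT5B and KMT2D over KMT2C turned to 0.037 and 0.019; this comparison was chosen after seeing the data. KDM5C was called lower, and EZH2, EED, SUZ12, NSD1, SETD2, SETD5, KDM4D and KDM6A higher, under all alternatives run, except that KDM4D was not tested with the filter of 5 TPM.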

Other observations

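Among 19 subunits of Polycomb repressive complex 1, which binds the H3K27 mark or ubiquitinates histone H2A, 10 were called higher and 1 lower on TPM as deposited, with a median log2 fold change of 0.31 beside 0.30 for all tested genes. After scaling, 3 were higher and 4 lower. Of all tested genes, 40.3% were called higher and 8.64% lower as deposited, and 22.5% and 25.5% after scaling. RING1, a catalytic subunit, had 71.6, 76.9 and 73.9 TPM in PRMT1-OV libraries, against 42.4, 39.8 and 44.0 TPM in Mock libraries (log2 fold change 0.80, limma adjusted p = 0.000253; scaled 0.43). PCGF6, which defines a variant complex, had 63.8, 63.9 and 54.3 TPM in PRMT1-OV, against 40.7, 40.3 and 37.7 TPM in Mock (0.60, adjusted p = 0.00149; scaled 0.23, adjusted p = 0.0501).

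Of 11 tested further SET, PRDM and DOT1L genes, 5 were called higher and none lower in limma (0 also at an unadjusted p under 0.05), beside 40.3% of all tested genes called higher, and after scaling 5 were higher and 2 lower. SETD4, a SET-domain protein, had 7.28, 9.08 and 7.26 TPM in PRMT1-OV, against 2.12, 2.85 and 2.43 TPM in Mock (1.36, adjusted p = 0.000369; scaled 1.05), and PRDM4 had 27.9, 35.3 and 31.4 TPM in PRMT1-OV, against 13.1, 12.9 and 10.5 TPM in Mock (1.30, adjusted p = 0.000267; scaled 0.94). DOT1L, the H3K79 methyltransferase, did not pass (0.05, adjusted p = 0.681) and was called lower after scaling (-0.32, adjusted p = 0.0233), as was PRDM16 (-0.38, adjusted p = 0.0424). Of 7 tested further JmjC genes, 6 were called higher, among them JMJD4 (0.71, adjusted p = 0.00144) and RIOX2 (0.67, adjusted p = 0.00158). After scaling 5 of the 7 were higher and 1 lower. On that scale 22.5% of all tested genes were called higher and 25.5% lower.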
